A study of Mus musculus with 6 samples.

Results

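Traces of mammary epithelium in RNA from sorted tumor macrophages were followed with 10 genes: Krt8, Krt18 and Krt19, Epcam, Cldn3, Lcn2, and the milk protein genes Csn1s1, Csn2, Csn3 and Wap. They were chosen by name, with earlier results of these data known, and all 10 are among the 21841 genes of the count table. The libraries came from tumor-bearing FVB/N-Tg(MMTV-PyVT)634Mul/J animals otherwise labelled WT, in which the MMTV promoter drives the polyoma middle T antigen in mammary epithelium and tumors arise spontaneously. The mice received vehicle (n = 3) or the heme oxygenase inhibitor KCL-HO-1i at 25 µmol/kg/day (n = 3) by intraperitoneal injection over 36 h, and their ages are not given in the labels. Live CD45+F4/80+CD206+LYVE1+ cells, a gate meant to hold perivascular tumor-associated macrophages (PvTAMs) and to leave epithelium out, were sorted (5000 cells per condition in the design text, with no number per mouse) and sequenced in bulk.

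Milk proteins are made by luminal secretory cells of the mammary gland. Prolactin, acting through its receptor and the transcription factor STAT5, switches on the casein genes and Wap in pregnancy and lactation. Keratins 8, 18 and 19 build the filaments of luminal cells, EPCAM is an adhesion protein of their membrane, and claudin 3 is a protein of their tight junctions. Lipocalin 2 binds bacterial siderophores and is made by stressed epithelia and by neutrophils, among other cells.

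Over all libraries together, the milk protein genes carried most of the counts on these genes, and the starts of their coding sequences are shown. Csn1s1 is included as a milk gene, although it had only 7 counts in all. Each line gives the first 60 coding bases of the longest protein-coding transcript in GENCODE M21 (GRCm38), 5′ to 3′, with the start codon in capitals.
Csn3: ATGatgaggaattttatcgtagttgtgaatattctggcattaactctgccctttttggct
Csn2: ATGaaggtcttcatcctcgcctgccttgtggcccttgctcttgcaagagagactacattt
Csn1s1: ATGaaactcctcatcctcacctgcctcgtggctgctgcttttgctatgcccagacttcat
Wap: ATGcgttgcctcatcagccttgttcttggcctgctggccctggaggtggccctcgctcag
Compared position by position without gaps, Csn2 and Csn1s1 shared 38 of these 60 bases (63.3%), whereas Csn2 and Csn3 shared 18 (30%) and Csn3 and Wap shared 24 (40%). Csn2 and Csn1s1 were the closest of the 4 starts, and Csn3, the gene with the most counts, was not one of that pair.

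Promoters of the members that had counts with KCL-HO-1i and none with vehicle are shown next, as background on how prolactin signaling reaches milk genes through STAT5. Whether STAT5 has a part in the difference between the groups was not tested. The 150 bases before the RefSeq start site (GRCm38.p6, a reference from another strain than these mice) are given on the strand of the gene, with matches to TTCNNNGAA, the form of element that STAT5 recognizes, in capitals. The Csn2 stretch is chr5:87699426-87699575 (minus strand), that of Csn1s1 is chr5:87666058-87666207 (plus strand) and that of Wap is chr11:6638650-6638799 (minus strand).
Csn2: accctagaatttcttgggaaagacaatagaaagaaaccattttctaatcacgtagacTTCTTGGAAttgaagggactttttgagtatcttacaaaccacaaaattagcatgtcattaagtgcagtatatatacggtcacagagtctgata
Csn1s1: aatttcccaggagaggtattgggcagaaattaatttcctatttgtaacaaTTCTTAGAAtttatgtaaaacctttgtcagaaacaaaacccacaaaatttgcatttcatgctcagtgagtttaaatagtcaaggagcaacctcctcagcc
Wap: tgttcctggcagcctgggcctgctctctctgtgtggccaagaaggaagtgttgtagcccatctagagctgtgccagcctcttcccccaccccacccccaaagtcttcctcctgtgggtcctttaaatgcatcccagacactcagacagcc
The motif reads the same on both strands. Of the 8 members with a RefSeq promoter of 300 bases (250 before and 50 after the start), 2 held it, Csn2 at 93 and Csn1s1 at 100 bases before the start, and 8.30% of all 32851 promoters of that length held it. Csn3 and Krt19 have no entry. The Wap window held no such letters, from which nothing follows about STAT5.

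Across the 6 libraries the 10 genes had 805 counts, and Csn3 alone had 69.2% of them. Csn3 encodes kappa-casein, the casein at the surface of milk micelles that keeps them in suspension. It lies on chromosome 5 of GRCm38 from 87925579 to 87932665 (plus strand). Vehicle replicates 1, 2 and 3 had 39, 1 and 18 counts of Csn3, and the KCL-HO-1i replicates had 244, 79 and 176. Each KCL-HO-1i library therefore stood above each vehicle library.

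The library totals were 206728 to 338255 estimated counts under vehicle and 207812 to 535224 under KCL-HO-1i, so the totals overlapped between groups. Mitochondrial genes took 1.17% to 3.77% of the vehicle libraries but 9.68%, 2.45% and 41.8% of KCL-HO-1i replicates 1, 2 and 3, and KCL-HO-1i replicate 1 had counts on only 7584 genes against 10781 to 17318 in the others. All vehicle mice carry animal codes of 1 series and all KCL-HO-1i mice carry codes of others, so a batch along these codes and the treatment cannot be told apart. The counts carry no molecular identifiers, so intervals and floors cover counting error only.

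Levels were expressed as CPM (counts scaled to library size) after TMM normalization, a scaling that allows for a few genes taking a large share of a library. On this scale Csn3 was at 218, 5.17 and 61.4 CPM with vehicle, a mean of 94.9 ± 110 (SD, n = 3). With KCL-HO-1i it was at 1124, 316 and 632 CPM, a mean of 691 ± 408 (SD, n = 3). The groups did not overlap, with 316 CPM in the lowest KCL-HO-1i library and 218 in the highest vehicle library. In edgeR the quasi-likelihood fit across 7263 genes put its log2 fold change at 2.87 (standard error, SE, 1.11), with an edgeR adjusted p = 0.502 (Benjamini-Hochberg). An exact permutation test on CPM, two-sided, gave p = 0.1, the smallest that 3 mice against 3 allow.

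The difference in Csn3 was thus not called. In the same edgeR test 0 of 7263 genes (0.0%) passed an adjusted p of 0.05 with an absolute log2 fold change above 0.6, and 586 had an unadjusted p under 0.05. Those that were higher with KCL-HO-1i at the unadjusted p, Csn3 among them, were 5.01% of the genes tested. All 3 KCL-HO-1i libraries stood above all 3 vehicle libraries for 7.88% of the genes tested. The limma voom fit with sample quality weights called Csn3 (log2 fold change 3.12, adjusted p = 0.0350) and called 4.03% of all genes as higher. DESeq2 did not call it, at 2.96 (adjusted p = 0.181) over all genes and 3.01 (adjusted p = 0.117) over the filtered genes, although it called 165 and 236 genes in these fits. Without vehicle replicate 1, the vehicle library with the most Csn3, the log2 fold change was 4.54 (adjusted p = 0.115, edgeR).

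**Figure D1:**
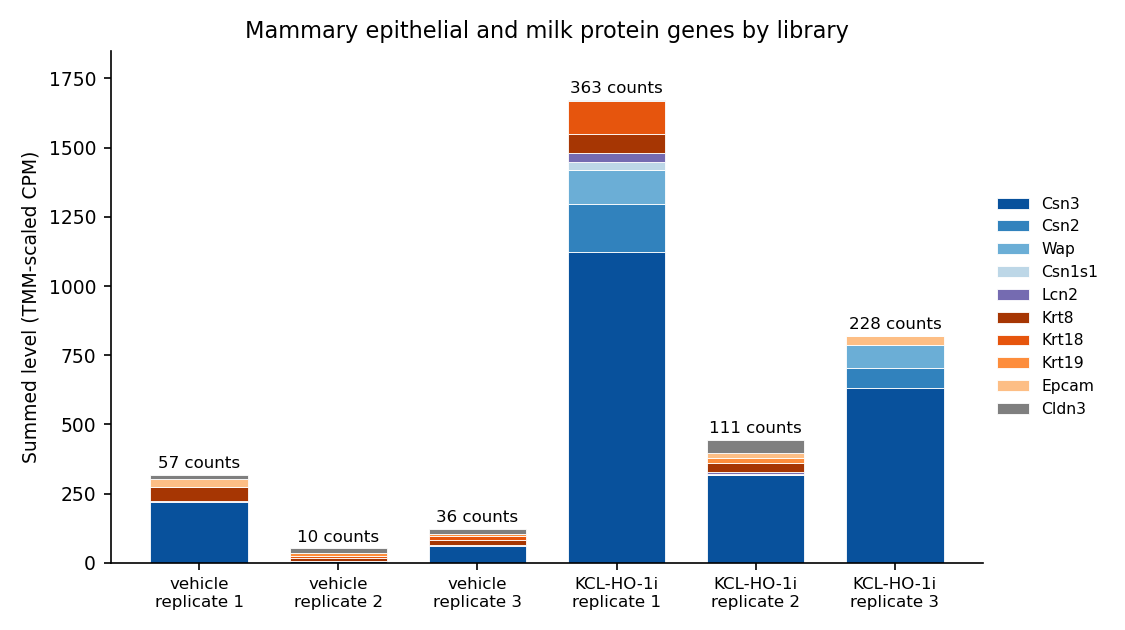
Summed level of the 10 genes in each library, in CPM after TMM normalization (vertical axis), with 1 bar per library and 1 color per gene. The number above a bar is the count behind it, from 10 counts in vehicle replicate 2 to 363 in KCL-HO-1i replicate 1. Csn3 is the largest segment in every library except vehicle replicate 2, and Csn2 and Wap have segments only in KCL-HO-1i replicates 1 and 3.

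The other milk proteins in the set were seen with KCL-HO-1i only, and in few libraries. Csn2, which encodes beta-casein, is on chromosome 5 from 87692624 to 87699630 (minus strand). No vehicle library had a count of it, and KCL-HO-1i replicates 1, 2 and 3 had 37, 0 and 20. Wap, which encodes whey acidic protein of rodent milk, is on chromosome 11 from 6635482 to 6638637 (minus strand). It was likewise at 0 in the vehicle libraries, and KCL-HO-1i replicates 1, 2 and 3 held 27, 0 and 23 counts of it. The same pair of KCL-HO-1i libraries held both genes, and replicate 2 held neither.

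Against a floor of 3 counts per vehicle library, the mean CPM with KCL-HO-1i was at least 5.70-fold higher for Csn2 and at least 4.87-fold higher for Wap. These means were 80.8 ± 85.6 and 69.0 ± 63.3 CPM (SD, n = 3), so the SD was about as large as the mean. Both gave p = 0.4 in the two-sided exact permutation test. Neither gene passed the filter on low counts. In DESeq2 over all genes, without that filter, the adjusted p was 0.0795 for Csn2 and 0.103 for Wap, and in edgeR without the filter it was 0.138 and 0.193. Csn1s1, which encodes alpha-S1-casein and lies on chromosome 5 from 87666208 to 87682578 (plus strand), had 0 counts under vehicle and 6, 1 and 0 under KCL-HO-1i, too few for a fold. Among 19518 genes with any count, 0.994% shared this pattern of 0 counts in all vehicle libraries and a count in at least 2 KCL-HO-1i libraries, as did 3 of the 10 genes here.

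The keratins and adhesion genes had few counts in both groups. Krt8, the type II keratin of simple epithelium, had 9, 2 and 5 counts under vehicle and 15, 8 and 0 under KCL-HO-1i. Krt18, its type I partner in the filament, had 0, 2 and 4 counts under vehicle and 26, 0 and 0 under KCL-HO-1i. In KCL-HO-1i replicate 1 both partners were present, and in replicate 3, which had 176 counts of Csn3, both were at 0. Krt19 (chromosome 11, 100140810 to 100148665) had 0, 2 and 2 counts under vehicle and 0, 5 and 0 under KCL-HO-1i. Krt8 lies on chromosome 15 from 101996698 to 102004482, and Krt18 lies 23.7 kb away, from 102028180 to 102032027. GENCODE M21 lists a processed pseudogene of Krt8, so the assignment of its few reads is uncertain.

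Epcam (chromosome 17, 87635979 to 87651129) had 5, 0 and 0 counts under vehicle and 0, 4 and 9 under KCL-HO-1i. Cldn3 (chromosome 5, 134986214 to 134987472) had 3, 3 and 6 counts under vehicle and 1, 12 and 0 under KCL-HO-1i, and its mean was 17.6 ± 2.59 CPM under vehicle and 17.5 ± 26.5 with KCL-HO-1i (SD, n = 3). Lcn2 (chromosome 2, 32384633 to 32388252) had 1, 0 and 1 counts under vehicle and 7, 2 and 0 under KCL-HO-1i. For each of these genes and for the keratins the groups overlapped. The exact permutation p was 0.5 for Lcn2, 0.7 for Krt8 and Epcam, and 1 for Krt18, Krt19 and Cldn3 (two-sided). These 6 genes, with Csn2, Csn1s1 and Wap, make up the 9 members that the filter left out of the edgeR test above. In edgeR without the filter, the adjusted p of the 6 ran from 0.830 (Krt18) to 0.998 (Cldn3), and that of Csn1s1 was 0.697. DESeq2 over all genes gave adjusted p = 0.868 for Krt18 and 0.981 for Krt8 and none for the other 4 of the 6.

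Split by role, the 4 milk protein genes had 58 counts in the vehicle libraries and 613 with KCL-HO-1i, whereas the 5 keratin and adhesion genes had 43 and 80. The milk genes took 68.4% (95% Wilson interval 55.5 to 79.0), 10% (1.79 to 40.4) and 50% (34.5 to 65.5) of the counts of all 10 genes in vehicle replicates 1, 2 and 3. In KCL-HO-1i replicates 1, 2 and 3 they took 86.5% (82.6 to 89.6), 72.1% (63.1 to 79.6) and 96.1% (92.7 to 97.9). The KCL-HO-1i shares all lay above the vehicle shares, but the interval of KCL-HO-1i replicate 2 overlapped those of vehicle replicates 1 and 3. Summed over the 10 genes the level was 319, 51.7 and 123 CPM under vehicle and 1673, 443 and 818 under KCL-HO-1i. Keratin and adhesion genes together were at 95.01, 46.5 and 58.0 CPM under vehicle and at 194, 116 and 32.3 with KCL-HO-1i, and here the groups overlapped. As a share of a whole library, the 10 genes had between 0.00464% (vehicle replicate 2, 95% Wilson interval 0.00252 to 0.00854) and 0.175% (KCL-HO-1i replicate 1, 0.158 to 0.194).

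Whether so few counts stand above stray reads was examined with 1471 olfactory and vomeronasal receptor genes, which belong to sensory neurons. Counts were divided by the length of the longest coding transcript, and a gene was set against the 95th percentile of the receptor genes in the same library, which was 6.63 to 9.52 counts per kb. Csn3 exceeded it in 5 of the 6 libraries, at 24.4 and 11.3 counts per kb in vehicle replicates 1 and 3 and at 152.9, 49.5 and 110.3 in KCL-HO-1i replicates 1, 2 and 3. In vehicle replicate 2 it was at 0.627 counts per kb, within the receptor range. Csn2 and Wap exceeded the percentile in KCL-HO-1i replicates 1 and 3, at 27.8 and 15.05 counts per kb for Csn2 and 49.0 and 41.7 for Wap. Krt18 exceeded it in KCL-HO-1i replicate 1 only (18.1 counts per kb) and Cldn3 in KCL-HO-1i replicate 2 only (9.53). Krt8, Krt19, Epcam, Csn1s1 and Lcn2 were within it in every library. In the vehicle libraries only Csn3 exceeded it. The other counts behind the vehicle milk shares above were therefore at the level of the receptor genes. How far stray reads set those shares was not tested. The highest receptor gene reached 31.7, 27.7 and 51.6 counts per kb in vehicle replicates 1, 2 and 3. It reached 33.3, 31.4 and 28.1 in KCL-HO-1i replicates 1, 2 and 3. Csn3 stood above that gene in the KCL-HO-1i libraries only, and Wap in KCL-HO-1i replicates 1 and 3. Csn2, Krt18 and Cldn3 stayed below it in every library.

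**Figure D2:**
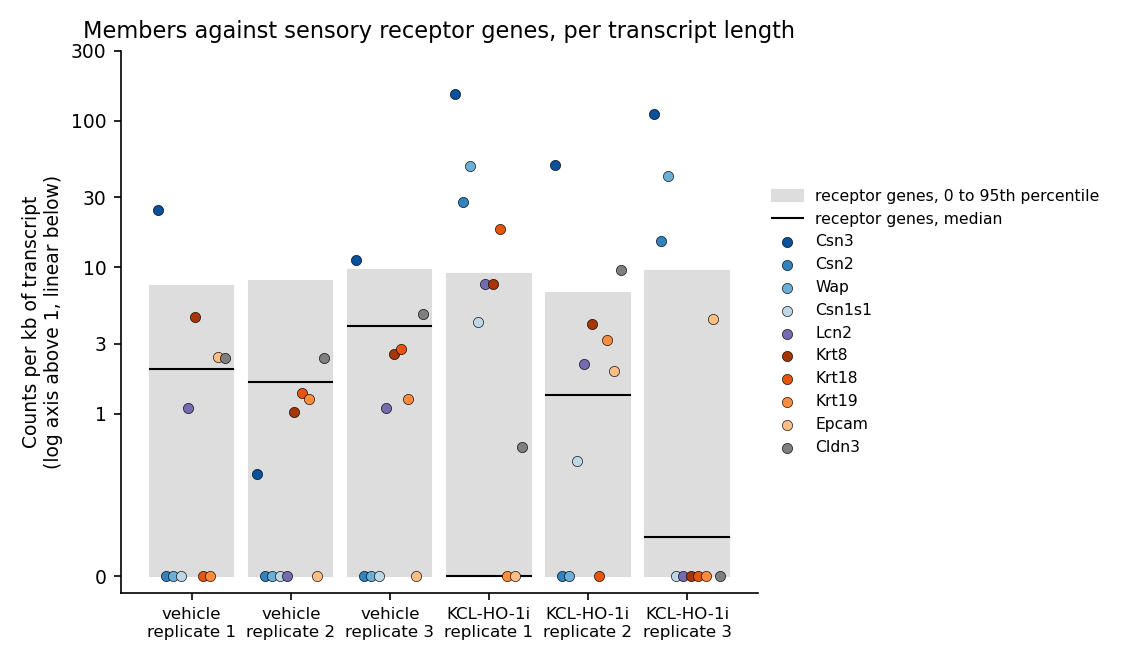
Counts per kb of transcript (vertical axis, logarithmic above 1 and linear below) for each of the 10 genes in each library. Gray boxes span 0 to the 95th percentile of 1471 receptor genes and the black line is their median. Csn3 lies above the box in all libraries but vehicle replicate 2, and the keratins lie inside it except Krt18 in KCL-HO-1i replicate 1.

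The caseins and the keratins were then set within their gene families. The 5 caseins of the table lie with Prr27 and Odam in a cluster of 266 kb on chromosome 5. Csn3 ranked first among them by counts and Csn2 ranked second. The neighbors Csn1s2b and Prr27 had counts in vehicle libraries only (2, 0 and 9, and 0, 3 and 2), and Odam, which encodes an odontogenic protein, had 0, 0 and 1 counts under vehicle and 0, 0 and 6 under KCL-HO-1i. Counts at the cluster were therefore not shared by all of its genes. An antisense gene that overlaps Csn3 in GENCODE M21 is not among the rows of the table. The library kit keeps strand, and the strand setting of the quantification is not given in the sources used here.

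Among 53 keratin genes, Krt8, Krt18 and Krt19 ranked 7, 11 and 40 by total counts, and the most counted were Krt7 (88 counts), Krt222 (74) and Krt80 (69). Krt8, Krt18 and Krt19 together took 2.26% to 4.51% of the keratin counts of a vehicle library and 42.3%, 5.88% and 0% in KCL-HO-1i replicates 1, 2 and 3. The high share in KCL-HO-1i replicate 1 was 41 of 97 keratin counts. All keratins together had 229, 266 and 244 counts under vehicle and 97, 221 and 51 under KCL-HO-1i, so the shares also depend on the other keratins. Whether the counts of those stand above stray reads was not examined. Cldn3 ranked 11 among 32 claudin genes.

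Among other genes of lactation, Wfdc18 had the most counts. Of 20 further milk protein and lactogenic genes, 17 had a count, 2 passed the filter and 0 were called by edgeR or DESeq2. Wfdc18, which encodes a small secreted protein of the whey acidic protein family, had 45, 0 and 8 counts under vehicle and 235, 104 and 387 under KCL-HO-1i. The KCL-HO-1i libraries were again all above the vehicle libraries, with 92.9 ± 138 and 962 ± 498 CPM (SD, n = 3). Its log2 fold change was 3.38 (SE 1.34, edgeR adjusted p = 0.515), and limma voom gave 4.57 (adjusted p = 0.0141). Trf, the transferrin gene, was the other tested gene, at 0.65 (SE 1.25).

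Lalba, the regulatory subunit of lactose synthase, had 0 counts under vehicle and 8, 2 and 4 under KCL-HO-1i. Its mean CPM with KCL-HO-1i was 1.39-fold the floor of 3 counts per vehicle library, but replicate 2 lay below that floor. Csn1s2a had 9 counts in KCL-HO-1i replicate 1 and 0 elsewhere. Glycam1, Xdh and Wfdc3, which lactating glands also express, were at 0 in all 6 libraries. The other genes named by their level had fewer counts with KCL-HO-1i, Slc34a2, a phosphate transporter (9, 5 and 16 counts with vehicle, 0, 4 and 5 with KCL-HO-1i), and Aldoc, a glycolytic aldolase (7, 0 and 21, and 0, 7 and 0). Counts of milk genes therefore differed from gene to gene.

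Luminal and adhesion genes outside the set gave no call. Of 24 genes in edgeR, 10 were tested, 4 were higher and 6 lower in value, and 0 were called, with 1 at an unadjusted p under 0.05. DESeq2 and limma voom also called 0 of them. Their median log2 fold change was -0.31, against -0.52 over all genes tested. The 4 with the highest levels were Prlr, the prolactin receptor (log2 fold change 0.24, SE 0.98), Esrp1, an epithelial splicing regulator (-0.79, SE 0.91), Dsp, which encodes desmoplakin of desmosomes (-2.16, SE 0.97, adjusted p = 0.607 in edgeR), and Krt7 (0.46, SE 1.10). The 24 genes summed to 868 to 1260 CPM under vehicle and 475 to 1003 under KCL-HO-1i. Of 12 basal and myoepithelial genes 3 were tested and 0 called by any of the 3 tools, with a median of -0.37 (1 higher, Trp63, and 2 lower, Oxtr and Mylk, in value), and Krt14 had 5, 2 and 7 counts under vehicle and 0, 11 and 0 under KCL-HO-1i.

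Markers of the sorted cell type were also higher in value with KCL-HO-1i. The 15 macrophage markers, the gate genes among them, had 316, 63 and 154 counts under vehicle and 671, 2057 and 1867 under KCL-HO-1i, which was 0.0292% to 0.153% and 0.323% to 0.643% of the libraries. Of the 10 tested, 9 were higher in value and 0 were called by edgeR, with a median log2 fold change of 2.81 and 6 genes at an unadjusted p under 0.05. DESeq2 called 1 of the markers over all genes (Adgre1) and 2 over the filtered genes (Adgre1 and Lyz2), and limma voom called 4 (Adgre1, C1qb, C1qc and Lyz2). The most abundant was Lyz2, lysozyme of myeloid cells (log2 fold change 3.24, SE 1.08), followed by C1qc (3.43), C1qb (2.55) and Folr2 (2.40). Adgre1, which encodes F4/80 of the gate, had 3, 3 and 1 counts under vehicle and 26, 44 and 72 under KCL-HO-1i. Mrc1, which encodes CD206, had 12, 0 and 3 and then 31, 31 and 104. Lyve1 had 22, 8 and 12 and then 8, 38 and 36. Ptprc, which encodes CD45, had 4, 6 and 0 and then 0, 18 and 94, so gate genes were at 0 in vehicle replicates 2 and 3 and in KCL-HO-1i replicate 1. The receptor genes used above had a median of 2.03, 1.65 and 3.95 counts per kb in vehicle replicates 1, 2 and 3. With KCL-HO-1i it was 0, 1.34 and 0.243. Per kb of transcript, Adgre1 and Ptprc lay below this median in every vehicle library, Mrc1 in replicates 2 and 3, and Lyve1 in none. No gate gene lay below it with KCL-HO-1i. What part stray reads have in the marker counts was not tested. In bulk RNA, fewer cells of a type and less RNA per cell cannot be told apart.

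Set against the macrophage markers, Csn3 no longer separated the groups. Per 1000 counts on the 15 markers there were 123, 15.9 and 117 counts of Csn3 under vehicle and 364, 38.4 and 94.3 under KCL-HO-1i. The means were 85.4 ± 60.3 and 165 ± 174 (SD, n = 3), and only KCL-HO-1i replicate 1 was above the vehicle range. The vehicle ratios rest on 316, 63 and 154 marker counts, and the 15.9 of replicate 2 is 1 count of Csn3. The overlap therefore does not show that the groups are alike. Wfdc18 had 142, 0 and 51.9 counts per 1000 marker counts under vehicle and 350, 50.6 and 207 with KCL-HO-1i, which also overlapped. With libraries scaled to the 15 markers, a choice made after seeing the data, the log2 fold change of Csn3 was 0.91 (SE 1.47, adjusted p = 0.564 in edgeR) and the median over all genes went from -0.52 to -3.82. Among KCL-HO-1i libraries, Csn3 per marker count was lowest in replicate 2, with 79 counts of Csn3 and 2057 marker counts. Replicate 3 had 176 and 1867. The marker counts are the divisor, so this ratio cannot show a relation of Csn3 to them. What part the macrophage content has in the values of Csn3 was not tested.

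**Figure D3:**
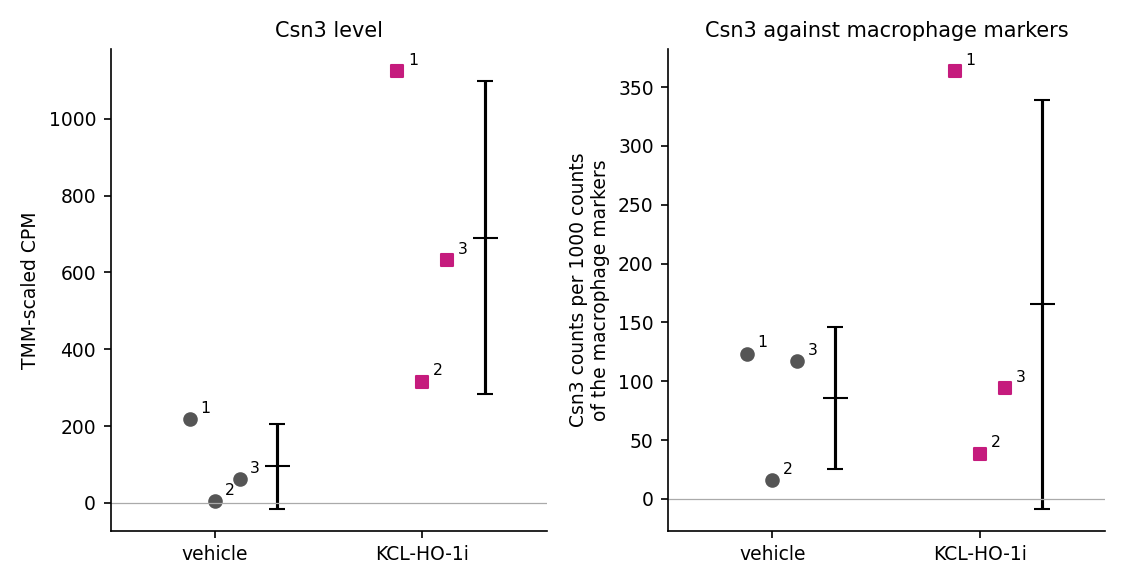
Csn3 in each library (numbered points) as TMM-scaled CPM (left vertical axis) and as counts per 1000 counts on 15 macrophage markers (right vertical axis). Vehicle is shown by circles and KCL-HO-1i by squares, with the mean and SD of the 3 libraries beside them. On the left all KCL-HO-1i libraries lie above the vehicle libraries, and on the right the groups overlap. The vehicle points on the right rest on 316, 63 and 154 marker counts in replicates 1, 2 and 3.

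Markers of other cells mostly did not pass the filter. Neutrophils, another but not the only other source of Lcn2, were followed with 10 markers, of which 0 passed the filter and Elane was at 0 throughout. These summed to 109 to 156 CPM under vehicle and 23.0 to 212 with KCL-HO-1i. In KCL-HO-1i replicate 1, which had the most Lcn2 (7 counts), the 10 markers had 5 counts. S100a8 had 0, 2 and 27 counts with KCL-HO-1i, and Lcn2 had 7, 2 and 0. Lcn2 did not exceed the 95th percentile of the receptor genes in any library, and the source of its counts was not tested. The other neutrophil genes named by level were Mmp8 (10, 15 and 6 counts under vehicle, 0, 6 and 2 under KCL-HO-1i), Csf3r and Ly6g.

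Of 8 fibroblast markers 2 were tested, and both were lower in value (median -1.49, Pdgfra and Pdgfrb), and Lum and Fn1 were not tested. The 8 endothelial markers gave 2 tested genes (median -0.22, Vwf and Emcn), with Cdh5 and Kdr not tested. Among 6 adipocyte markers only Plin1 was tested, at -1.32, with Lep, Cidec and Adipoq below the filter. Of 9 T and B cell markers 2 were tested, Cd8a and Ms4a1 (median -0.05), with Cd4 and Cd3d below the filter. By edgeR, DESeq2 and limma voom, 0 genes of these lists were called, and in edgeR 0 had an unadjusted p under 0.05. The fibroblast markers summed to 324 to 369 CPM under vehicle and 69.1 to 208 with KCL-HO-1i, and the endothelial markers to 269 to 324 and 108 to 176. The median log2 fold change over all genes tested was itself -0.52. How many other genes were lower in each KCL-HO-1i library was not counted, so these sums say nothing particular about those cells.

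Genes with at least 60 counts were compared with Csn3 by log2 CPM across the 6 libraries. This cutoff left out Csn2 (57 counts), Wap (50), Lalba (14), Csn1s2a (9) and Csn1s1 (7), so it cannot show whether milk genes were most like Csn3. Among 7416 genes with at least 60 counts, Pearson's r was highest for Tma7 (0.996), Ccni (0.991), Scarb2 (0.991), Extl2 (0.988) and Cox4i1 (0.986), a subunit of cytochrome c oxidase. Wfdc18 came at rank 7 (0.983). The libraries differ in depth and content, and r of at least 0.9 was reached by 175 of the 7416 genes. Cox4i1 had 16, 0 and 4 counts under vehicle and 89, 33 and 108 under KCL-HO-1i.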

How the data were processed

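Bulk RNAseq of sorted LYVE-1+ macrophages from 3 vehicle mice and 3 KCL-HO-1i mice was examined. Per the labels and the paper's methods, the authors used FastQC 0.11.9, STAR 2.7.9a and Salmon 1.9.0 with mm10, and tximport to sum transcripts per gene. The table the authors deposited holds estimated counts, unscaled and not all whole. The methods call them TPM counts, but library totals differ, so they were treated as estimated counts, and a fixed total per library was not assumed. The annotation used is not given in the sources used here.

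Counts were rounded, filtered with filterByExpr (minimum count 10, minimum total 15), TMM-normalized and compared in edgeR 4.0.16 (R 4.3.3) by its quasi-likelihood test (adjusted p under 0.05, absolute log2 fold change above 0.6). CPM used the TMM library sizes of the 7263 genes that passed. DESeq2 1.42.0 and limma 3.58.1 were alternatives, beside other normalizations, filters, a replicate block, each mouse left out and thinned counts. Single genes were compared by exact permutation tests. Intervals are 95% Wilson, and a count of 0 allows up to 3 counts.

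Members and the 9 other gene lists were chosen with earlier results of these data known. Named are all members, the 4 genes of each list with the highest mean CPM, the 4 gate genes and the 5 genes outside the lists most like Csn3 (Pearson's r, prior count 2). Genes named outside this rule (Lalba, Csn1s2a, Csn1s2b, Prr27, Odam, Krt222, Krt80 and the genes at 0) were chosen after their values were seen. Positions are from GENCODE M21, which holds 21613 of the 21841 symbols, and promoters from RefSeq (GRCm38.p6).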

Additional observations from a re-analysis of the deposited data

How the results depend on the processing

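Csn3 was higher with KCL-HO-1i in all 15 alternatives that could be fitted beside the scaling to the macrophage markers (log2 fold change 2.49 to 4.54, adjusted p 0.0350 to 0.9997), and it was called in 1 of them, limma voom with quality weights (3.12, adjusted p = 0.0350). It was not tested with at least 10 counts required in every library, since vehicle replicate 2 has 1. Leaving out 1 mouse at a time gave 2.49 to 4.54 and adjusted p from 0.115 to 0.9997 in edgeR.

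The number of genes called was 0 in edgeR, and also with RLE normalization, library totals, no fold change threshold, thinned counts or no mitochondrial genes. It was 165 (102 higher, 63 lower) in DESeq2 over all genes, 236 in DESeq2 over filtered genes, 299 in limma voom (293 higher), 82 with no low-count filter, 67 with at least 10 counts in every library and 586 at an unadjusted p under 0.05. Leaving out 1 mouse gave 0 to 74 calls, the 74 without vehicle replicate 1. Scaling to the macrophage markers, chosen after seeing the data, gave 4039 (9 higher). The causes were not tested.

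The replicate numbers belong to different mice, and deviations of same-numbered libraries correlated at -0.0026, 0.055 and -0.033, so they do not pair the samples. With the replicate block, 0 genes were called and Csn3 was at 3.60 (adjusted p = 0.453).

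The mean summed level and mean milk share of the 10 genes moved by less than 1 SD under every alternative that kept all mice. With so few libraries per group, leaving out 1 mouse cannot move a mean by 1 SD, so that limit tests nothing there. Without 1 mouse, the summed level was 87.3 to 220.7 CPM with vehicle and 631 to 1246 with KCL-HO-1i. The milk share was then 30% to 59.2% with vehicle and 79.3% to 91.3% with KCL-HO-1i. Both sums were lowest without replicate 1 of their group. The low-count filter left out 9 of the 10 genes. In fits without it (edgeR, and DESeq2 over all genes) 0 of these 9 were called, with the lowest adjusted p at 0.0795 (Csn2, DESeq2), and DESeq2 gave no adjusted p for 5 of them.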
